A study of Homo sapiens with 6 samples.

Results

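Translation elongation in the cytosol was followed through 9 genes of the 58735 in the count table, namely EEF1A1, EEF1A2, EEF1B2, EEF1D, EEF1G, EEF1E1, EEF2, EEF2K and EIF5A. The genes were chosen by name, on the measured rise of EEF1A2 with C3 in these same libraries, so their changes are given as a description. No p-value of a single one of them is printed. How many passed a threshold is given beside the share of all genes that did in the main comparison of all 6 libraries. Of the 9 genes, 8 had at least 10 counts in at least 3 libraries and were compared between the groups. EEF1G was at 0 in all 6 libraries. The cells were Meg-01, a human megakaryoblast line that originated from a chronic myeloid leukaemia and is 1 clonal line. Control cells received no treatment, and C3 cells received 500 µM sodium propionate (C3), a short-chain fatty acid, for 48 h. Each group has 3 RNAseq libraries made from total RNA. Nothing in the labels says that they came from separate cultures, and a figure legend of the study calls them technical replicates. The spread between them, on which every p-value below rests, may therefore be technical.

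Elongation is the stage of protein synthesis in which the ribosome moves along the mRNA codon by codon. eEF1A, bound to GTP, delivers aminoacyl-tRNA to the ribosome, and the eEF1B complex (eEF1B2, eEF1D and eEF1G) exchanges its GDP for GTP. eEF2 moves the ribosome by one codon, eEF2 kinase phosphorylates and inactivates eEF2, and eIF5A, which carries the modified lysine hypusine, helps at stalled ribosomes. eEF1A is made from paralogous genes: EEF1A1 is used in most tissues and is among the most abundant mRNAs of proliferating cells, whereas EEF1A2 is known from neurons, heart and skeletal muscle.

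Library totals were between 16159449 and 22821722 counts. Counts were normalized by scaling each library from its effective size (total times TMM factor) to the mean effective size of 18617539. A differentially expressed gene (DEG) is one that passed 2 gates in edgeR's quasi-likelihood test: an adjusted p under 0.01, and a change of more than 1.3-fold either way. C3 replicate 1 differed from the other C3 libraries by chi-square values of 6.72 and 7.58 per degree of freedom, against 2.94 between these other libraries. Control replicate 3 likewise differed from the other controls by 5.26 and 8.17, against 2.42. C3 replicate 1 had the highest value of the C3 group in 7 of the 8 genes compared, so values without it are given where they change a result. Megakaryocyte markers were present: 18 of 20 passed the count filter, their summed level was 2320 to 2456 CPM (counts scaled to a fixed library total) in control and 2417 to 2429 in C3 libraries, and PF4 and GP1BB were listed at 0. The most abundant of them were ITGA2B, the platelet integrin alpha chain, at 12902 ± 390.3 (SD, n = 3) and 12377 ± 878.4 normalized counts, and RUNX1, a lineage transcription factor, at 9584 ± 245.1 and 8740 ± 234.3. Of the 18, 4 were called as DEGs (6.52% of all genes were called in either direction): CD9, a tetraspanin (log2 fold change 1.02), and THBS1, thrombospondin (0.91), were higher, and TUBB1, the platelet beta tubulin (-1.36), and GP1BA, a von Willebrand factor receptor chain (-0.49), were lower. TUBB1 was not called without control replicate 1 (-1.31) or C3 replicate 1 (-1.12).

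The mRNAs of EEF1A1 and EEF1A2 encode near-identical proteins, so their sequences were compared before the counts were read. EEF1A1 (ENSG00000156508) lies on the minus strand at chr6:73489308-73525587 and EEF1A2 (ENSG00000101210) on the minus strand at chr20:63488013-63499239 (GRCh38, GENCODE release 44). The aligned coding sequences were identical in 1086 of 1389 bases, or 78.2%. The first 90 coding bases are shown because they show how differences are spread along the exons, with the 17 bases that differ in capitals.
EEF1A1: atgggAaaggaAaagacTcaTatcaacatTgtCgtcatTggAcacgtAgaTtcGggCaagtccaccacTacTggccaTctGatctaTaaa
EEF1A2: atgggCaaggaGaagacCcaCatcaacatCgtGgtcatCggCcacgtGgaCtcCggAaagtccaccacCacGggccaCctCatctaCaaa
The longest run shared by both coding sequences was 20 bases, and coding bases 142 to 191 around it are shown in the same way.
EEF1A1: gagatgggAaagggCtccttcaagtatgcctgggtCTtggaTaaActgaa
EEF1A2: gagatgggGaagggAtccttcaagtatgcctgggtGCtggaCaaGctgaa
Of the 1724 windows of 50 bases in the canonical EEF1A2 transcript, 0 were found in that of EEF1A1 and 0 in any EEF1A1 pseudogene, so an error-free read of that length from EEF1A2 does not match EEF1A1.

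EEF1A2 was higher after C3 in every library. Its normalized counts were 589, 540 and 560 in control replicates 1 to 3 and 1702, 1423 and 1474 in C3 replicates 1 to 3. The lowest C3 library was above the highest control library by far more than the spread within either group. The means were 563 ± 24.6 and 1533 ± 148 (SD, n = 3), a 2.72-fold difference and a log2 fold change of 1.44 ± 0.077 (SE). EEF1A2 was called as a DEG, and 5.05% of the 15078 genes compared were called higher. By size of the log2 fold change it ranked 109 among all genes compared. Over the 14 alternative ways of processing, the log2 fold change was between 1.37 and 1.51, and without C3 replicate 1 it was 1.37. None of its exon bases overlap another annotated gene.

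EEF1A1, the abundant paralog, was lower after C3 in every library. Its normalized counts were 494142, 516841 and 515017 in control and 440054, 384286 and 378457 in C3 libraries. The groups did not overlap, and C3 replicate 1 was nearest to the controls. The means were 508670 ± 12612 and 400930 ± 34006, a log2 fold change of -0.34 ± 0.081. The change lay within the fold change gate (0.379 on the log2 scale), so EEF1A1 was not called. Without C3 replicate 1 the log2 fold change was -0.41 and EEF1A1 was called. EEF1A1 ranked 1 of all genes by its mean count in control libraries, and took 2.66% ± 0.0452 of all counts in control and 2.20% ± 0.121 in C3 libraries. In RNA of whole cultures, fewer cells that express a gene and less RNA per cell cannot be told apart.

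As a share of the counts of both eEF1A genes, EEF1A2 made up 0.119%, 0.104% and 0.109% in control replicates 1 to 3, with 95% Wilson intervals of 0.110 to 0.129, 0.0957 to 0.114 and 0.0992 to 0.119, which cover counting error only. In C3 replicates 1 to 3 the share was 0.385%, 0.369% and 0.388%, with intervals of 0.366 to 0.405, 0.351 to 0.388 and 0.371 to 0.406. The intervals overlapped within each group and not between the groups. The mean share went from 0.111% ± 0.00755 to 0.381% ± 0.0102 (SD, n = 3). There were 905.5 ± 60.4 EEF1A1 counts for each EEF1A2 count in control and 261.8 ± 7.16 in C3 libraries. These are shares of counts, not corrected for length. The canonical EEF1A1 transcript is 3.512 kb long and that of EEF1A2 is 1.773 kb, so the EEF1A2 share per length is larger in both groups.

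Of the eEF1B exchange complex, EEF1B2 and EEF1D were compared and neither was called as a DEG, beside 6.52% of all genes. With so few genes this is near the background and is no result about the complex. EEF1B2 (ENSG00000114942, plus strand of chromosome 2), the alpha exchange subunit, had 10217, 10653 and 11273 normalized counts in control and 9981, 8812 and 9232 in C3 libraries. All C3 libraries were below all controls, by a narrow margin for C3 replicate 1, and the log2 fold change was -0.20 ± 0.066. EEF1D (ENSG00000104529, minus strand of chromosome 8), the delta exchange subunit, had 1804, 1933 and 1766 normalized counts in control and 1914, 1898 and 1807 in C3 libraries. These groups overlapped, and the log2 fold change was 0.029 ± 0.063, with a range of 0.0032 to 0.069 when single libraries were left out. EEF1G (ENSG00000254772, minus strand of chromosome 11), the gamma subunit that holds the complex together, was at 0 in every library. In the annotation, 99.73% of its exon bases are shared on the same strand with ENSG00000255508, which had 15 to 33 counts per library. How the counting treated reads shared by both genes was not tested, and the 0 was therefore not read as an absence of EEF1G mRNA. Another 34.5% of the canonical EEF1D transcript lies opposite ENSG00000279605 (1 to 7 counts per library) and ENSG00000254741 (0 counts), and reads of opposite strands cannot be told apart where counting ignores strand.

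EEF1E1 (ENSG00000124802, minus strand of chromosome 6), also known as AIMP3, is a scaffold protein of the multi-synthetase complex and not an exchange factor. It had 221, 200 and 220 normalized counts in control and 171, 271 and 202 in C3 libraries. Controls were close together, whereas C3 libraries were on both sides of them. The means were 214 ± 11.7 and 214 ± 51.3, the log2 fold change was 0.0086 ± 0.13, and its sign turned with the choice of processing. A read-through gene, EEF1E1-BLOC1S5, shares 37.5% of the canonical EEF1E1 transcript and had 0 to 1 counts per library.

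EEF2 (ENSG00000167658, minus strand of chromosome 19), the translocase, ranked 5 of all genes by control count. It had 140257, 142950 and 129787 normalized counts in control and 143374, 119952 and 123688 in C3 libraries. C3 replicate 1 was above all controls and the other C3 libraries were below them, so the groups overlapped, and the log2 fold change was -0.094 ± 0.078. Without C3 replicate 1 the remaining C3 libraries were both below all controls and the log2 fold change was -0.17, and without C3 replicate 2 it was -0.041. EEF2K (ENSG00000103319, plus strand of chromosome 16), the kinase that inactivates eEF2, had 2328, 2397 and 2287 normalized counts in control and 2254, 2064 and 2060 in C3 libraries. All C3 libraries were below all controls, with a log2 fold change of -0.14 ± 0.063. EIF5A (ENSG00000132507, plus strand of chromosome 17) had 30150, 30822 and 28929 normalized counts in control and 29872, 26706 and 27412 in C3 libraries. Here the groups overlapped, and the log2 fold change was -0.098 ± 0.067, with a range of -0.15 to -0.063 when single libraries were left out.

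Across the 8 genes compared, 1 was called higher and 0 lower, beside 6.52% of all genes called in either direction, 5.05% called higher and 1.47% called lower. The C3 libraries were all above the controls for 1 gene (17.5% of all genes) and all below them for 3 genes (16.9% of all genes). At an adjusted p-value below 0.05 with no fold change gate, EEF1A2 counted as higher (11% of all genes) and EEF1A1 and EEF1B2 as lower (8.77% of all genes). This count of 3 depended on single libraries and on scaling. It was 6 without C3 replicate 1, where EEF2, EEF2K and EIF5A also passed. Without control replicate 2 or C3 replicate 3 it was 1, where EEF1A2 alone passed. With library size alone it was 2, where EEF1B2 did not pass. The shares given belong to the main comparison only. Lower DEGs among all genes were 222 there, 340 without C3 replicate 1, 175 without control replicate 2 and 129 without C3 replicate 3. The median log2 fold change of the 8 genes was -0.096, against 0.0021 over all genes. Because these values chose the genes, nothing is read from the counts. Together the genes took 3.59%, 3.69% and 3.58% of the counts of the control libraries and 3.35%, 3.06% and 3.04% of those of the C3 libraries, most of it EEF1A1.

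**Figure D1:**
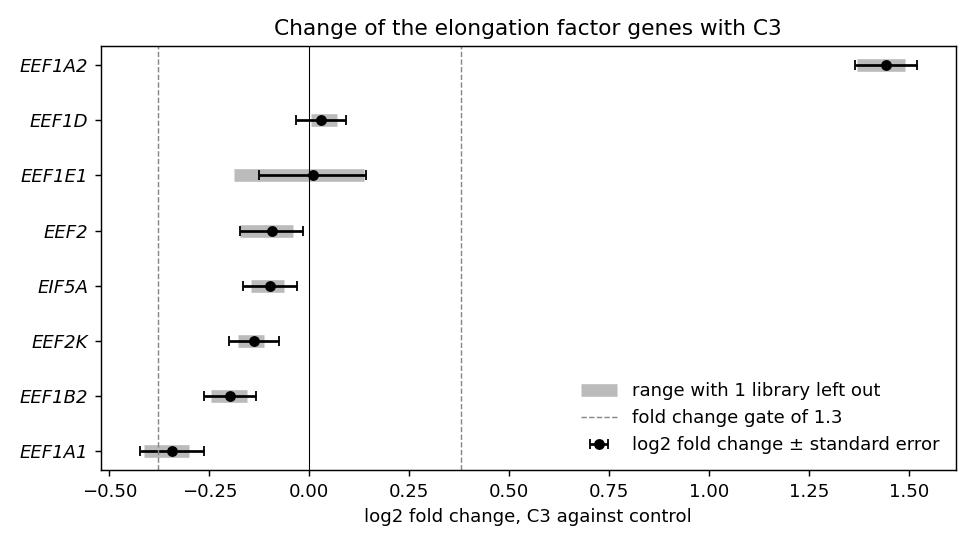
Log2 fold change of the 8 genes compared (horizontal axis, C3 against control), with SE as black bars, the range with 1 library left out in grey and the fold change gate as dashed lines. EEF1A2 is at 1.44, EEF1A1 is the lowest at -0.34, and the other genes lie between -0.20 and 0.029.

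Per kilobase of merged exon, the order of the levels in control libraries was EEF1A1 at 50550 normalized counts per kilobase, EEF2 at 34240, EIF5A at 11160, EEF1B2 at 5595, EEF2K at 291, EEF1D at 195.4, EEF1A2 at 116.6 ± 5.1 and EEF1E1 at 102.4. No library of a gene in this order overlapped the libraries of the next gene in control cells. After C3, EEF1A2 reached 317.6 ± 30.7 per kilobase and moved from rank 7 to rank 5 of 8, above EEF2K at 264.8 and EEF1D at 199.5. This move depended on the length used. Per kilobase of the canonical transcript, EEF1A2 went from 317.4 to 864.5, EEF1D from 877.8 to 896.2 and EEF2K from 315.9 to 287.4, and EEF1A2 was at rank 6 in both groups.

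**Figure D2:**
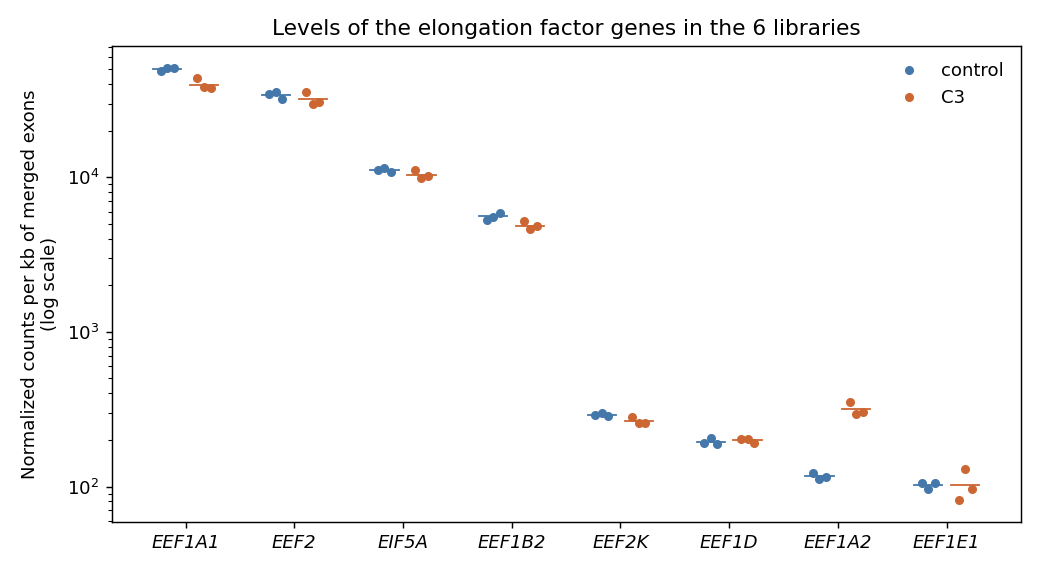
Normalized counts per kilobase of merged exon (vertical log axis) of the 8 genes compared, with each library as a point, control and C3 libraries in separate colours and group means as horizontal lines. EEF1A2 moves from a mean of 116.6 in control to 317.6 in C3 libraries, past EEF1D and EEF2K, and EEF1A1 is the highest in both groups.

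Many mRNAs of the translation machinery begin with a C followed by an unbroken run of C and T, the terminal oligopyrimidine start through which mTOR signalling controls their translation. In the RefSeq promoter windows (GRCh38.p14), which reach from 250 bases before to 50 bases from a start site, 7 of the 9 genes had an entry, and EEF1A2 and EEF1D had none. A start with C and at least 4 further C or T was found for EEF1A1, EEF1B2 and EEF2, and for 4.1% of all 35116 windows. The 20 bases before and the 20 bases from these starts are shown with the unbroken C and T run in capitals.
EEF1A1 (chr6:73521013-73521052, minus strand): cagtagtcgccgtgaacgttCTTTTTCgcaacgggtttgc
EEF1B2 (chr2:206159875-206159914, plus strand): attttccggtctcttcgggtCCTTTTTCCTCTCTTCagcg
EEF2 (chr19:3985444-3985483, minus strand): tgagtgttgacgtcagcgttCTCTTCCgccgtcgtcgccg
The runs are 7, 16 and 7 bases long, and another EEF1B2 start in the same table has no such run. Of these genes, EEF1A1 and EEF1B2 had C3 libraries all below control (16.9% of all genes), whereas EEF2 overlapped. EEF2K, whose window has no such run, was also all below control, and EEF1E1 and EIF5A, likewise without a run, overlapped. A link between the run and the levels was not tested. The motif TGACGTCA, searched on both strands, was in the EEF2 window, where it begins upstream of the run, and in 1.8% of all windows. A match of letters says nothing about use of the start in these cells.

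EEF1A1 has many processed pseudogenes, whose sequence can take its reads or give it theirs. Of 77 pseudogene rows of these genes, 29 had counts, and 49 rows belonged to EEF1A1, 19 of them with counts. Of the EEF1A1 windows of 50 bases, 36.6% were also found in a pseudogene, so its level is uncertain to the extent that such reads were split. The EEF1A1 pseudogenes together had 4456 to 5235 counts in control and 4334 to 6433 in C3 libraries, which was 0.979 to 1.04% and 1.08 to 1.33% of the EEF1A1 counts. The most abundant was EEF1A1P5, at 4067 ± 116 and 3645 ± 421 normalized counts (adjusted p = 0.12, edgeR's quasi-likelihood test). EEF1A1P6 had 704 ± 51.0 and 844 ± 225 (adjusted p = 0.12, edgeR), and EEF1A1P13 had 200 ± 12.1 and 204 ± 74.1 (adjusted p = 0.98, edgeR). With all pseudogene counts added to EEF1A1, the EEF1A2 share was 0.103 to 0.118% in control and 0.365 to 0.383% in C3 libraries, still without overlap.

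Other genes of the pathway were grouped in lists, and 3 single genes of them were called as DEGs. Of all 15078 genes, 5.05% were called higher and 1.47% lower. The counts of calls are given beside these shares and are no result about the lists. Beside the counts at an unadjusted p below 0.05 given for these lists, 16.8% of all 15078 genes were higher and 15.3% lower at that threshold. Of 8 relatives of the elongation factors, 0 were called in either direction (0 higher and 2 lower at an unadjusted p below 0.05, and 0 by DESeq2 and limma-voom), and the median log2 fold change was -0.056. The smallest p-value was that of EFTUD2, the GTPase of the U5 spliceosome particle, at -0.22 (adjusted p = 0.015, edgeR). Of 15 enzymes that modify elongation factors (lysine methylation, diphthamide and hypusine), 0 were called in edgeR's test (1 higher and 6 lower at an unadjusted p below 0.05, and 0 by DESeq2 and limma-voom), with a median of -0.12. DPH2, of the first step of diphthamide synthesis on eEF2, was at -0.27 (adjusted p = 0.0089, edgeR), within the fold change gate.

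Of 20 regulators of eEF2 kinase or phosphorylated eEF2 (calmodulin, AMPK, mTORC1, S6 kinases and PP2A), 1 was called higher (5.05% of all genes). PRKAA2, the alpha 2 catalytic subunit of AMPK, was the only gene called. It had 26.4, 32.9 and 26.3 normalized counts in control and 35.3, 58.4 and 76.9 in C3 libraries, with a log2 fold change of 1.02 ± 0.27 (adjusted p = 0.0078, edgeR). This call at low counts was lost with DESeq2 (adjusted p = 0.0149), with limma-voom (0.0177) and without any single library other than C3 replicate 1. Adjusted p-values were between 4.04e-04 and 0.135 over the alternatives that compared PRKAA2. The filter at a mean count of 50 removed it. The median of the list was -0.098, with 3 of 20 higher and 8 lower at an unadjusted p below 0.05.

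Of 11 members of the multi-synthetase complex and its partners, with which eEF1E1 is associated, QARS1, the glutaminyl-tRNA synthetase, was called lower (1.47% of all genes). It had 6876 ± 142 normalized counts in control and 5274 ± 349 in C3 libraries, a log2 fold change of -0.38 ± 0.064 (adjusted p = 1.06e-04, edgeR). Its fold change was close to the gate, and it was no longer called without control replicates 2 or 3 or C3 replicates 2 or 3, at log2 fold changes of -0.378, -0.371, -0.346 and -0.361. The median of the list was -0.080. Of 43 initiation factors and their partners, EIF5B, the GTPase that joins the ribosomal subunits, was called higher (5.05% of all genes). It had 1451 ± 96.4 normalized counts in control and 1959 ± 312 in C3 libraries, a log2 fold change of 0.44 ± 0.084 (adjusted p = 5.4e-04, edgeR). The call was lost without C3 replicate 2, at 0.36. The other initiation factors were not called, 15 of the 43 were lower and 4 higher at an unadjusted p below 0.05 (15.3% and 16.8% of all genes), and the median was -0.068. These counts describe the lists and were not tested against other genes.

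EEF1A2 is known from neurons and striated muscle, and some markers of both were called higher after C3. Of 18 neuron markers, 9 passed the count filter, of which 5 were called higher (5.05% of all genes) and 0 lower in edgeR's test, with a median log2 fold change of 0.51. The other 4 were ELAVL4 (0.84), SYP (0.032), SNAP25 (-0.12) and SYN1 (-0.32). Those called were NEFL (0.51), NEFM (1.04) and NEFH (0.45), the neurofilament chains, ENO2 (0.55), an enolase, and RBFOX3 (0.71), a splicing regulator. RBFOX3 was not called without control replicate 1 (0.657), control replicate 2 (0.653) or C3 replicate 3 (0.638). Most abundant were NEFL, at 6555 ± 100 and 9320 ± 273 normalized counts (adjusted p = 1.37e-06, edgeR), and NEFH, at 1291 ± 40.1 and 1762 ± 193 (adjusted p = 7.5e-05, edgeR). The summed level of the list was 463 to 481 CPM in control and 659 to 739 CPM in C3 libraries. SYT1, STMN2, TUBB3, ELAVL3 and DCX were listed at 0 in every library, and MAP2, GAP43, CAMK2A and INA had counts below the filter. EEF1G was listed at 0 as well, so such a 0 was not read as absence of the mRNA. Of 20 striated muscle markers, 2 passed the filter and both were called higher (5.05% of all genes): TNNT1, slow skeletal troponin T, at 2240 ± 72.9 and 3231 ± 141 (log2 0.53, adjusted p = 1.11e-06, edgeR), and TTN, titin, at 84.8 ± 6.41 and 149 ± 0.699 (log2 0.82, adjusted p = 2.3e-04, edgeR). Summed muscle markers were 120 to 126 CPM in control and 182 to 196 CPM in C3 libraries, and ACTC1, MYH7, TNNT2, TNNT3, TNNI1, MYL2 and MYOG were listed at 0 in every library, with the other muscle markers below the filter. The part of these markers in the change of EEF1A2 was not tested.

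The genes whose profile over the 6 libraries was most like that of EEF1A2 were found by the root mean square difference of log2 normalized counts less the control mean, over 11850 genes with a mean of at least 50. They were CREB3L1 (difference 0.0698), a transcription factor of the endoplasmic reticulum membrane, FSD1 (0.0879), PLEKHA4 (0.0922), SRPX (0.105) and OLFM2 (0.13). The log2 fold changes of these genes were 1.39, 1.42, 1.57, 1.49 and 1.34. CREB3L1 went from 101 to 265 normalized counts and OLFM2 from 161 to 407, both below EEF1A2. PLEKHA4 went from 26.5 to 79.1 and reached the mean of 50, taken over all 6 libraries, only through its C3 libraries. The median difference over all genes compared was 1.04. An unchanged gene differs by about as much through the rise of EEF1A2 alone, so this median does not measure the likeness. This likeness was chosen on the same contrast and describes these libraries.

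The neighbours of EEF1A2 on chromosome 20 were counted in the same way. Of 66 annotated genes within 500 kb, 21 passed the count filter and 0 were called by edgeR's quasi-likelihood test (2 higher and 3 lower at an unadjusted p below 0.05, and 0 by DESeq2 and limma-voom). Of all genes, 6.52% were called, 16.8% had an unadjusted p below 0.05 in the higher direction and 15.3% in the lower, so with 21 genes a count of 0 is near the background and is no result about the locus. Within 200 kb, 9 of 22 passed the filter and 0 were called. The median log2 fold change of the 21 genes was -0.082.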

How the data were processed

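The authors deposited whole-number read counts for each gene, not normalized, which they made with fastp, STAR 2.6.1d and featureCounts 1.5.0-p3 on GRCh38/hg38, according to the submitters' processing notes. For the annotation release and the strand setting, the sources used here give no entry. Treatment lasted 48 h per the labels, whereas the study's methods mention 24 h as well. A figure legend of the study calls the libraries technical replicates.

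The 3 control and 3 C3 libraries had 16159449 to 22821722 counts in 58735 genes, of which 29753 were at 0 everywhere. The 15078 genes that reached 10 counts in 3 or more libraries were scaled with TMM factors. Groups were compared in edgeR 4.0.16 under R 4.3.3 by the quasi-likelihood test, unblocked, and p-values were adjusted over all 15078 genes by the Benjamini-Hochberg method. The code was tested on simulated data. Alternatives were DESeq2 1.42.0, limma-voom (limma 3.58.1), a replicate block, leaving out each library, RLE factors or library size alone for scaling, and either a stricter filter (mean count 50) or none. Library sizes without EEF1A1 and EEF2, and canonical transcript length, were added after the data were seen. Standard errors are those of the log2 fold change.

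Positions, exons and transcripts came from GENCODE release 44 on GRCh38 (58207 genes matched) and promoter windows from RefSeq. Sequences were compared with Biopython 1.88 and Python 3.11.15. The members and lists were chosen with earlier results of these data known. Named were all 9 genes, up to 3 called genes of each translation list or else the one with the smallest p-value, the 3 most abundant pseudogenes, called neighbours within 500 kb, the 5 nearest profiles and the 2 most abundant genes of each marker list. The mouse, platelet and protein experiments were not analysed here. Some results are not reported here.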

Additional observations from a re-analysis of the deposited data

How the results depend on the processing

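EEF1A2 was called under every alternative run, and the direction of EEF1A1, EEF1B2, EEF1D, EEF2, EEF2K and EIF5A held under all of them. Their sizes moved: with library size alone EEF1B2 was at -0.125, EEF2 at -0.023, EEF2K at -0.065 and EIF5A at -0.026, all smaller falls. EEF1D was at 0.103 there, a larger rise. EEF1E1 turned to -0.0121 with limma-voom and -0.0080 with a replicate block, and was between -0.187 and 0.137 when single libraries were left out. Leaving out single libraries gave EEF1A1 -0.413 to -0.30 and 1 to 2 elongation genes called, beside 6.52% of all genes in the main comparison. At an adjusted p below 0.05 with no fold change gate, 3 elongation genes passed (1 to 6 without single libraries). In the main comparison, 11% of all genes were higher and 8.77% lower at that threshold. DEGs with lower expression were 222, 100 with library size alone and 129 to 340 without single libraries (340 without C3 replicate 1). DEGs with higher expression were 761, and 516 to 766 without single libraries. With library size alone the median of all genes was 0.0764, and 91.1% of DEGs were higher, against 77.4%. Higher eEF2 kinase regulators were 0 with DESeq2 and limma-voom, and 0 to 1 without single libraries. They were also 0 with a mean of at least 50, where PRKAA2 did not pass the filter and was not compared. Lower multi-synthetase genes were 0 with library size alone, no filter or a mean of at least 50, and 0 to 1 without single libraries. Higher initiation factors were 2 with library size alone or a mean of at least 50, and 0 to 2 without single libraries. Lower initiation factors and lower modification enzymes were each 0 to 1 without single libraries. Per canonical transcript length EEF1A2 was at rank 6 in control and 6 in C3. Apart from the loss of PRKAA2 to that filter, the causes of these shifts were not tested.

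Same-numbered control and C3 libraries did not deviate together (r = 0.0114, -0.0419 and 0.0292). The labels do not say whether such libraries were prepared together, and these values cannot decide it. With the replicate block, 909 genes were called higher and 268 lower, and EEF1A2 was at 1.44. Of the genes near EEF1A2, 1 was called with the replicate block and 1 with no count filter. Precision is limited for genes with few counts, such as EEF1E1 and PRKAA2.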

Other observations

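Among the termination, recycling and mitochondrial elongation factors listed, no gene was called as a DEG, beside 6.52% of all genes. In lists this short, a count of 0 is near that share and is no result about these steps. Of 7 termination and recycling factors, 0 were called by edgeR's quasi-likelihood test, DESeq2 or limma-voom (0 higher and 2 lower at an unadjusted p below 0.05 in edgeR), with a median log2 fold change of -0.018. The smallest p-value was that of MCTS1, a factor of ribosome recycling and reinitiation, at 517 ± 42.7 normalized counts in control and 432 ± 34.9 in C3 libraries (log2 -0.26, adjusted p = 0.037, edgeR). Of 5 mitochondrial elongation factors, 0 were called by the same 3 tools, and 0 had an unadjusted p below 0.05 in edgeR. Their median was -0.11 and all 5 log2 fold changes were negative, with TSFM, the exchange factor of mitochondrial EF-Tu, at -0.18 (adjusted p = 0.22, edgeR).

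Markers of other blood cells moved in both directions or were not called. Of 8 myeloid markers, 4 passed the count filter and 2 were called, beside 6.52% of all genes. LYZ, lysozyme, went from 613 ± 18.8 to 430 ± 8.27 normalized counts (log2 -0.51, adjusted p = 4.7e-05, edgeR), and ITGAM, an integrin chain, from 645 ± 75.6 to 895 ± 45.3 (log2 0.47, adjusted p = 1.8e-04, edgeR). Without control replicate 3, ITGAM was at 0.378 and was not called. Of 8 lymphoid markers, 4 passed the filter and 0 were called in edgeR's test (1 higher at an unadjusted p below 0.05). The most abundant were CD4, at 5056 ± 183 and 4716 ± 151 (adjusted p = 0.27, edgeR), and NKG7, at 164 ± 13.3 and 213 ± 42.6 (adjusted p = 0.054, edgeR).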
